A study of Ovis aries and Bos taurus with 15 samples.

Results

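The SRSF genes encode the serine/arginine-rich splicing factors. Members were taken by symbol, as every probe set of the bovine array whose platform annotation gave 1 gene symbol only, that symbol being SRSF1, SRSF2, SRSF3, SRSF4, SRSF5, SRSF6, SRSF7, SRSF9, SRSF10 or SRSF11. This gave 9 of the 10 genes, of 9155 genes named on the array, with 14 of the 24016 probe sets tested. SRSF1 and SRSF11 had 3 probe sets each, SRSF4 had 2 and the others had 1. Where a gene had several, they are written here with a letter in order of mean signal over the 15 arrays (SRSF1-A, SRSF1-B and so on). No probe set carried the symbol SRSF2, which is not analysed here. The family was chosen by a measured value, the difference of SRSF1 between GW9662 and vehicle on these arrays. Members' values in that comparison are therefore given as a description and with no test.

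RNA was profiled on 15 arrays in 3 groups of 5. Ovine PAEC, the pulmonary endothelial cells of the study's title, were given GW9662 at 5 µM for 24 h. GW9662 binds the nuclear receptor PPARγ covalently and blocks it. Bovine cells labelled BAEC formed a control group, for which the labels state no vehicle, and ovine PAEC given the DMSO vehicle for 24 h formed the remaining group. All cells were grown in DMEM with 10% FBS. The labels name no passage, donor animal or clone, so the p-values cover the spread between these samples alone, which may be technical. The bovine and ovine controls differ in species and in the cell label at once. A vehicle and a treatment time are stated for the ovine cells only. These differences cannot be told apart.

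An SR protein carries RNA recognition motifs at its amino terminus and a tail rich in arginine and serine repeats. It binds exonic enhancers and helps the U1 and U2 particles find weak splice sites, and several members also travel with the mRNA to the cytoplasm and assist its export, translation or decay. The tail is phosphorylated by SRPK and CLK kinases, which sets where the protein resides and when it acts. SRSF genes limit their own output through alternative exons with early stop codons, whose transcripts are removed by nonsense-mediated decay.

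Values are log2 RMA expression values, and a difference of 1 is a doubling in signal. Array medians ran from 3.18 to 3.27. Vehicle replicate 1 stood apart, with a median correlation of 0.994 with the other vehicle arrays, where the other 14 arrays had 0.997 to 0.998 with their own groups. The 3′ minus 5′ difference of 6 control transcripts, a measure of RNA quality, was 0.956 ± 0.074 in GW9662 arrays, 0.881 ± 0.043 in bovine control arrays and 1.18 ± 0.085 in vehicle arrays (SD, n = 5 each). GW9662 and bovine arrays each lay wholly below the vehicle arrays (two-sided exact permutation p = 0.00794 for each, the smallest that 5 against 5 can give). Of 14 measured endothelial markers, 11 were at 4 or more in GW9662 cells, 12 in bovine cells and 11 in vehicle cells, with PECAM1 and CDH5 above 11 in each group. VWF was under 3 in all 3 groups, and CLDN5 was at 2.43 with GW9662, 5.03 in bovine cells and 2.45 with vehicle. KDR was at 3.79, 3.08 and 2.64 in the same groups. All 6 epithelial markers were under 3 in each group, as were 5 of 7 smooth muscle markers and 5 of 7 fibroblast markers. Among the exceptions, TAGLN was at 7.16 with GW9662, 9.0 in bovine cells and 7.18 with vehicle. In the same groups SMTN was at 4.29, 5.19 and 3.91. The fibroblast markers COL1A2 (10.36, 11.24 and 10.33) and COL3A1 (10.55, 10.41 and 10.44) were bright in each. CD14 of the leukocyte list was at 6.72, 2.27 and 6.69 in the same groups. Their part in the results below was not tested.

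SRSF1, the prototype of the family, binds purine-rich exonic enhancers and also acts in mRNA export, translation and decay. It was read by 3 probe sets, of which SRSF1-A and SRSF1-C were annotated with the same sequence accession and SRSF1-B with another. The pair may therefore share target sequence and is not independent. The manufacturer's name of SRSF1-C marks it as matching several transcripts of the gene.

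With SRSF1-A, the GW9662 arrays read 8.37, 8.24, 8.41, 8.19 and 8.38 and the vehicle arrays 7.60, 7.49, 7.67, 7.86 and 7.76. The groups did not overlap, the lowest GW9662 array lying above the highest vehicle array, and the difference was 0.64 on the log2 scale (SE 0.074), or 1.56-fold. The companion SRSF1-C read 7.59, 7.97, 7.58, 7.69 and 7.69 with GW9662, against 7.0, 6.97, 7.21, 7.18 and 7.10 with vehicle. These groups also did not overlap, at a difference of 0.61 (SE 0.082), or 1.53-fold. By contrast SRSF1-B read 7.87, 7.84, 7.78, 7.97 and 7.76 with GW9662, against 7.75, 7.83, 7.79, 7.74 and 7.56 with vehicle. Here the groups overlapped and the difference was 0.11 (SE 0.056).

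Across all probe sets limma called 0.183% for GW9662 against vehicle and 0.146% as higher, and groups did not overlap in 14.6%. Of the probe sets called, 79.5% were higher, with 91.0% after centring and 61.3% after quantile normalisation once more. Of the 14 SRSF probe sets, the pair on the shared accession passed, both higher, and the same pair had groups without overlap. Since SRSF1 led to the choice of the family, nothing is read from these counts. The count of 2 was 0 without GW9662 replicate 1, GW9662 replicate 5 or vehicle replicate 5, and 1 without GW9662 replicate 4 or vehicle replicates 1, 2 or 4. The differences themselves stayed between 0.59 and 0.69 for SRSF1-A and between 0.55 and 0.65 for SRSF1-C when each array was left out in turn. The control transcripts' 3′ minus 5′ value averaged 0.956 in GW9662 arrays and 1.18 in vehicle arrays, and its part in the SRSF1 values cannot be told apart from the treatment. When it was added to the fit as a term, SRSF1-A was at 0.61 and SRSF1-C at 0.33, and limma called no SRSF probe set and 0 of all probe sets.

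**Figure D1:**
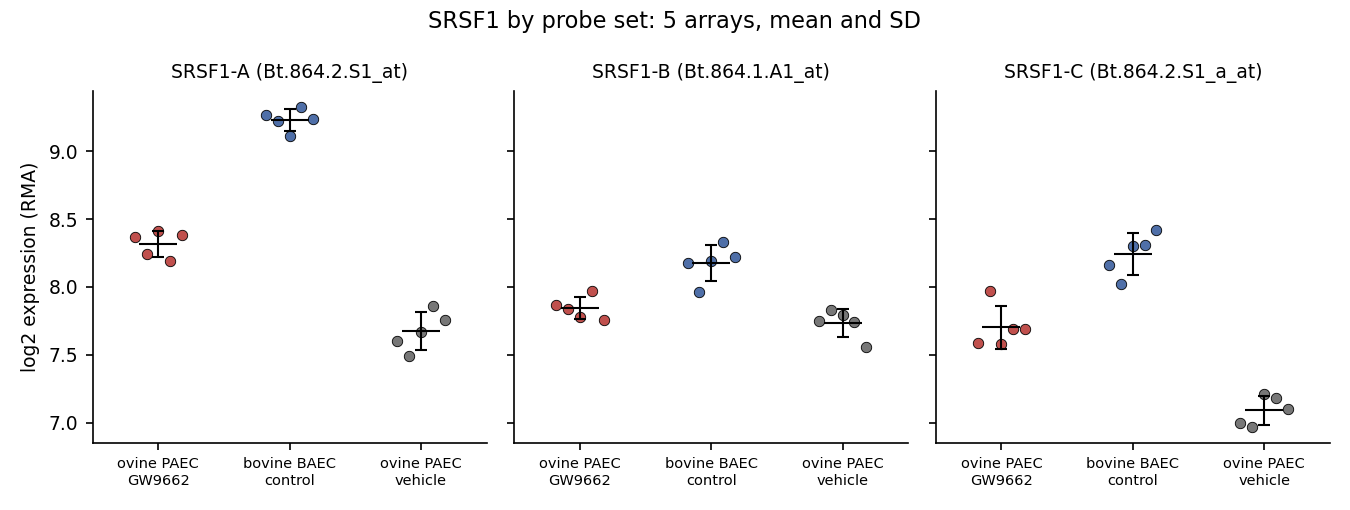
SRSF1 on each of its 3 probe sets, with the array's own probe set name in each panel title. Each point is 1 array, the bar is the mean and the whisker the SD over 5 arrays, and the y axis is the log2 RMA value. On SRSF1-A and SRSF1-C the GW9662 and the bovine arrays lie above all vehicle arrays, while on SRSF1-B the GW9662 and vehicle arrays overlap.

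The bovine controls were set against the same 5 vehicle arrays. Since the vehicle values of SRSF1 took part in choosing the family, SRSF1 is described here with no test, and the other genes are tested. On all 3 SRSF1 probe sets the bovine arrays read above the vehicle arrays, by unequal amounts. SRSF1-A read 9.27, 9.22, 9.11, 9.33 and 9.24 in bovine cells, a difference from vehicle cells of 1.56 (SE 0.071), or 2.94-fold. SRSF1-C read 8.16, 8.02, 8.30, 8.31 and 8.42 in bovine cells, a difference of 1.15 (SE 0.080), or 2.22-fold. SRSF1-B read 8.18, 7.96, 8.19, 8.33 and 8.22 in bovine cells, a difference of 0.44 (SE 0.072), or 1.36-fold. In each case every bovine array lay above every vehicle array. The probes were designed on bovine sequence. In ovine cells, how well the RNA matches a probe and how much RNA there is cannot be told apart, so these are differences in signal. In RNA from whole cultures, fewer cells expressing a gene and less RNA per cell cannot be told apart.

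To show how far the probe sets of SRSF1 differed in their bovine minus vehicle difference, each was subtracted from another on the same array, in 3 pairs and with no test. SRSF1-A minus SRSF1-B was 1.05 ± 0.13 in bovine arrays and -0.06 ± 0.22 in vehicle arrays, a change of 1.11 (SD, n = 5 each). SRSF1-A minus SRSF1-C was 0.99 ± 0.18 in bovine arrays and 0.58 ± 0.097 in vehicle arrays, a change of 0.40. For SRSF1-B minus SRSF1-C the values were -0.07 ± 0.095 in bovine arrays and 0.64 ± 0.16 in vehicle arrays, a change of -0.71. The bovine and vehicle arrays did not overlap in any of the 3 pairs.

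In GW9662 arrays SRSF1-A minus SRSF1-B was 0.47 ± 0.17, SRSF1-A minus SRSF1-C was 0.61 ± 0.23 and SRSF1-B minus SRSF1-C was 0.14 ± 0.18 (SD, n = 5). Relative to vehicle these were changes of 0.53, 0.03 and -0.51, given as a description. On the first subtraction the GW9662 arrays ran from 0.22 to 0.63, against -0.34 to 0.20 in vehicle arrays, without overlap. For SRSF1-A minus SRSF1-C they ran from 0.26 to 0.83, against 0.46 to 0.69 in vehicle arrays, which overlapped. Both comparisons use the same vehicle arrays, so a high or low vehicle value moves them together.

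**Figure D2:**
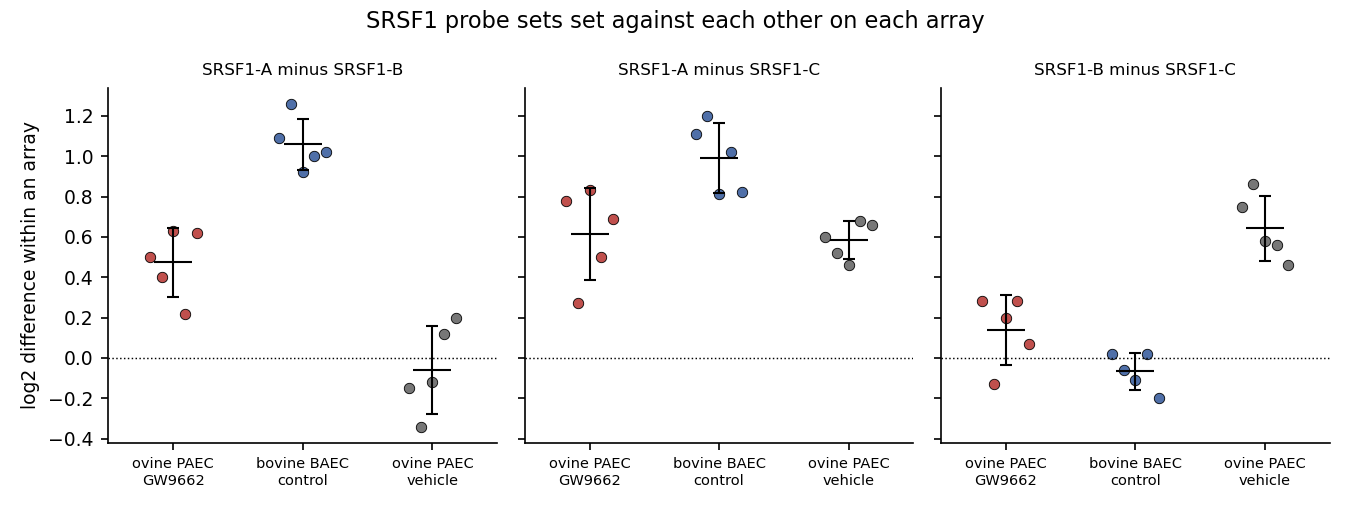
Differences between SRSF1 probe sets taken within each array, on the log2 scale, with 1 point per array and the mean and SD over 5 arrays. The bovine and vehicle arrays do not overlap in any of the 3 panels, and the GW9662 arrays overlap the vehicle arrays only for SRSF1-A minus SRSF1-C.

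SRSF9 is the closest relative of SRSF1 and shares its paired recognition motifs with a shorter tail. It read 11.1 on average in all 3 groups. The difference of GW9662 from vehicle was 0.00 (SE 0.035), with arrays from 10.95 to 11.13 with GW9662 and from 11.01 to 11.12 with vehicle. Bovine cells passed narrowly at a difference of 0.06 (SE 0.023, adjusted p = 0.0468), with overlapping groups, 11.08 to 11.15 in bovine cells against 11.01 to 11.12 with vehicle. That call held in 2 of the 10 fits that each left out 1 array, with adjusted p of up to 0.0959 and differences from 0.05 to 0.08 and was lost in 6 of the 8 alternative settings that keep all arrays, so the value lies at the threshold.

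SRSF4, SRSF5 and SRSF6 form another group with paired recognition motifs, and SRSF4 has a long serine/arginine tail. SRSF4-A, the bright probe set of SRSF4, read 9.88, 9.83, 9.91, 9.81 and 9.79 in bovine cells, against 9.49, 9.48, 9.45, 9.47 and 9.62 in vehicle cells. Every bovine array was above every vehicle array, and the difference was 0.34 (SE 0.037, adjusted p = 9.97e-05). With GW9662 it read 9.48, 9.58, 9.36, 9.50 and 9.63, a difference from vehicle of 0.01 (SE 0.054), and these groups overlapped.

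SRSF5, first described in rat as a gene induced in regenerating liver, read 8.79, 8.87, 8.65, 8.96 and 8.90 with GW9662. Bovine arrays read 8.74, 8.42, 8.88, 8.85 and 8.66, and vehicle arrays 8.78, 8.49, 8.65, 8.70 and 8.72. All 3 groups overlapped. Bovine cells differed from vehicle cells by 0.04 (95% interval -0.17 to 0.25, adjusted p = 0.718) and GW9662 cells by 0.16 (SE 0.070).

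SRSF6, which binds exonic enhancers of tau and of several other transcripts, had a negative difference in both comparisons. It read 8.96, 8.96, 8.99, 8.95 and 8.91 in bovine cells, against 9.18, 9.14, 9.06, 8.93 and 9.17 in vehicle cells. Vehicle replicate 4 fell within the bovine range, and the difference was -0.14 (SE 0.046, adjusted p = 0.0375). This call was lost with array centring (-0.10, adjusted p = 0.150) and held in 2 of the 10 fits without 1 array (-0.18 to -0.12, adjusted p up to 0.0777). The value was 0.09 when the 3′ minus 5′ difference entered the fit, where GW9662 against vehicle was 0.04. GW9662 cells averaged 9.05 ± 0.080 and vehicle cells 9.09 ± 0.10, a difference of -0.05 (SE 0.056, SD over n = 5 each).

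SRSF3 and SRSF7 have a single recognition motif, to which SRSF7 adds a zinc knuckle, and both act as adaptors that bring the export receptor NXF1 to mRNA. SRSF3 read 11.66, 11.48, 11.63, 11.69 and 11.60 in bovine cells, against 11.09, 10.93, 11.02, 11.18 and 11.15 in vehicle cells. The groups did not overlap and differed by 0.54 (SE 0.055, adjusted p = 7.2e-05). With GW9662 SRSF3 read 11.14, 11.16, 11.07, 11.35 and 11.34, a difference from vehicle of 0.14 (SE 0.069) with overlap. SRSF7 read 9.99, 10.20, 10.03, 10.12 and 10.11 in bovine cells, against 9.44, 9.61, 9.55, 9.32 and 9.45 in vehicle cells. Again no bovine array overlapped a vehicle array, and the difference was 0.62 (SE 0.059, adjusted p = 4.87e-05). GW9662 arrays of SRSF7 ran from 9.38 to 9.67, over nearly the same range as vehicle arrays, at a difference of 0.07 (SE 0.067).

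SRSF10 acts as a splicing repressor when it loses its phosphates, as in heat shock and mitosis. It read 9.89, 9.96, 9.85, 9.92 and 10.02 in bovine cells, against 9.26, 9.40, 9.40, 9.60 and 9.50 in vehicle cells. The bovine arrays lay above all vehicle arrays, by 0.50 on average (SE 0.060, adjusted p = 0.000211). With the 3′ minus 5′ difference in the fit this was 0.22 and did not pass (adjusted p = 0.480). With GW9662 the values 9.63, 9.63, 9.50, 9.55 and 9.67 overlapped the upper vehicle arrays, at a difference of 0.16 (SE 0.061), which was 0.00 once the 3′ minus 5′ difference entered the fit.

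SRSF11 is an SR-related protein that binds the splice site factor U2AF. Its bright probe set SRSF11-A read 10.07, 9.99, 10.11, 10.10 and 10.13 in bovine cells, against 9.64, 9.60, 9.73, 9.68 and 9.79 in vehicle cells. These did not overlap and differed by 0.39 (SE 0.041, adjusted p = 8.04e-05). With GW9662 it read 9.86, 10.07, 9.66, 9.95 and 9.98, of which replicate 3 fell within the vehicle range. The difference from vehicle was 0.21 (SE 0.075), the largest among the genes other than SRSF1, and 0.02 once the 3′ minus 5′ difference entered the fit.

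**Figure D3:**
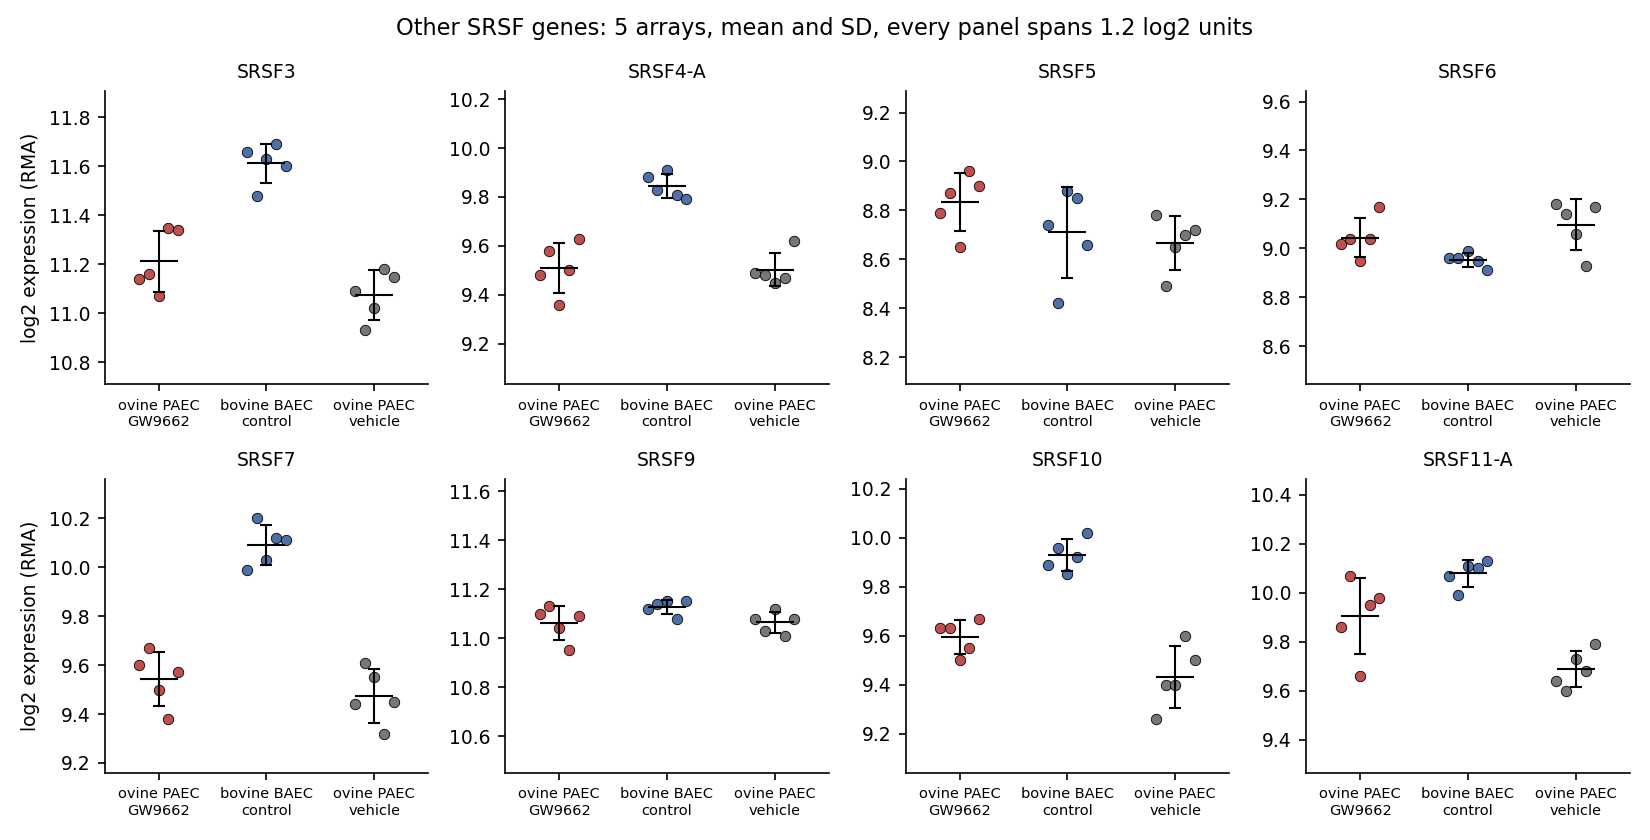
The other 8 SRSF genes, each on its 1 probe set with a mean of at least 4. Points are single arrays with the mean and SD over 5, and each y axis spans 1.2 log2 units. SRSF3, SRSF4, SRSF7, SRSF10 and SRSF11 have bovine arrays above all vehicle arrays, whereas the groups overlap in SRSF5, SRSF6 and SRSF9.

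The remaining 3 probe sets were dim, with a mean under 4, and say little about RNA levels. Of the dim SRSF11 probe sets, SRSF11-B was at 3.52 in bovine cells and 3.65 in vehicle cells, a difference of -0.13 (SE 0.018, adjusted p = 0.000416), in the opposite direction to the bright probe set. SRSF11-C was at 3.42 in bovine cells and 3.4 in vehicle cells (difference 0.02, adjusted p = 0.880). Without bovine replicate 2 its difference was -0.09 and passed (adjusted p = 0.0450). SRSF4-B was at 2.82 in bovine cells and 2.66 in vehicle cells (difference 0.16, adjusted p = 0.101). With GW9662 the 3 dim probe sets differed from vehicle by 0.01, -0.03 and 0.01 in this order.

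Of the 11 SRSF probe sets of genes other than SRSF1, 8 passed between bovine and vehicle cells, 6 higher and 2 lower, and 3 did not. The 3 of SRSF1 are described only and are left out of this count. Among all probe sets limma called 45.2% in this comparison, 15.6% higher and 29.6% lower. That split moved with the scaling of the arrays, to 15.6% higher and 11.3% lower after median centring and 13.4% higher and 14.9% lower after quantile normalisation once more, while 6 of the 11 were higher and 1 was lower under both. With dim probe sets left out, 56.9% of 10539 probe sets were called, 32.7% higher and 24.2% lower, beside 5 of the 8 left outside SRSF1, all 5 higher. The median difference of the 11 was 0.16, beside -0.03 over all probe sets, and that of the 8 brighter ones was 0.37, beside 0.05 over all brighter probe sets. Groups did not overlap in 6 of the 11, beside 53% of all. The brighter probe sets of SRSF3, SRSF4, SRSF7, SRSF10 and SRSF11 passed, all higher, in each of the 10 fits that left out 1 array, with adjusted p of at most 0.000952. The 3′ minus 5′ difference was 0.881 in bovine arrays against 1.18 in vehicle arrays without overlap, and with it in the fit 1 of the 11 passed, SRSF4-A at 0.47 (adjusted p = 0.0220). Among all probe sets limma called 6.67% in that fit, 2.39% higher and 4.28% lower. The other differences in that fit were 0.59 for SRSF3, 0.49 for SRSF7 and 0.32 for SRSF11-A, with adjusted p of 0.0659, 0.137 and 0.167, and SRSF1-A, SRSF1-B and SRSF1-C stood at 1.33, 0.41 and 0.89. For GW9662 against vehicle the median over all 14 SRSF probe sets was 0.09, beside -0.02 over all probe sets. With dim probe sets left aside it was 0.14, beside 0.05 over all brighter probe sets. Both SRSF medians include the 3 probe sets of SRSF1, which led to the choice of the family, so nothing is read from them.

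**Figure D4:**
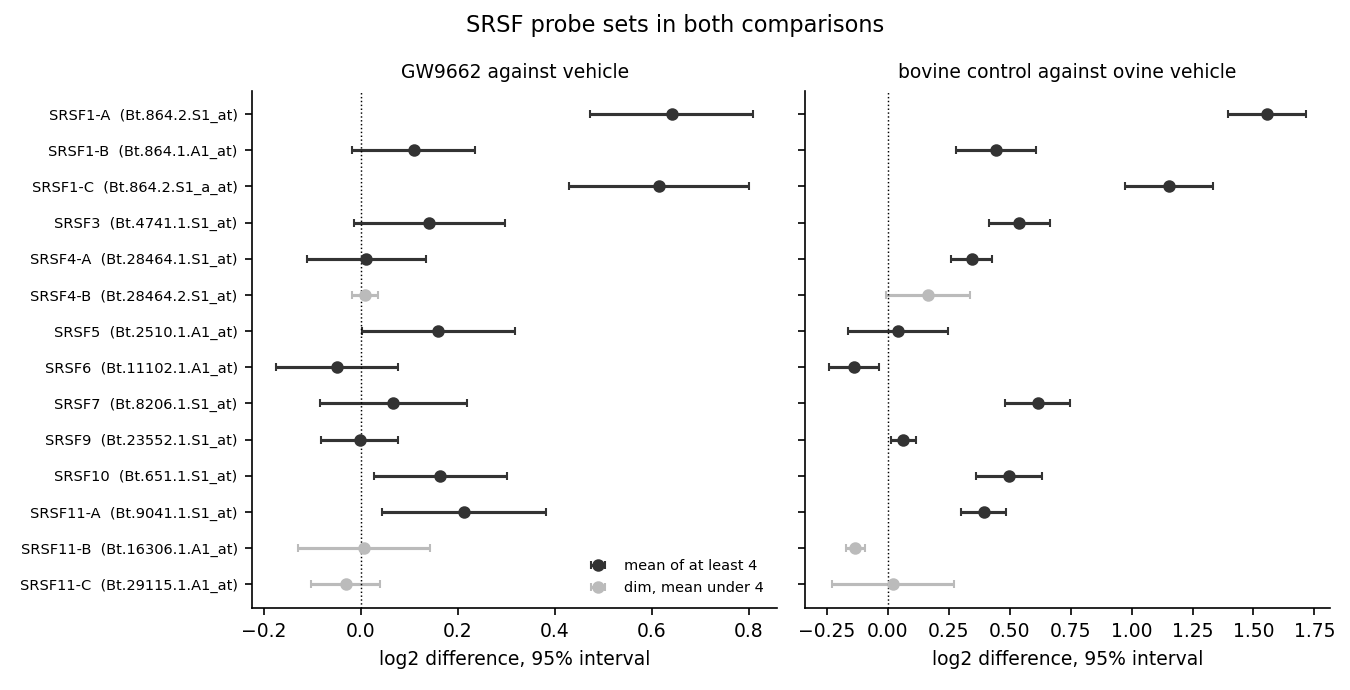
Log2 differences of the 14 SRSF probe sets with 95% intervals from limma, GW9662 minus vehicle on the left and bovine control minus ovine vehicle on the right. Dim probe sets are grey, and the x axes differ in range. SRSF1-A and SRSF1-C stand at 0.64 and 0.61 on the left and at 1.56 and 1.15 on the right.

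Other genes of SR protein function were taken from 4 lists, each gene on its brightest probe set. No gene of these lists passed for GW9662 against vehicle in limma, where 0.218% of 9155 genes passed. Of 16 measured kinases, phosphatases and importins of SR proteins, 3 were higher and 0 lower at an unadjusted p under 0.05. Of 22 SR-related proteins and partners, 7 were higher and 1 lower, and of 13 hnRNP proteins, which often oppose SR proteins at exons, 2 were higher and 1 lower. Of 17 genes of nonsense-mediated decay and mRNA export, 0 were higher and 2 lower at this level. Over all genes 7.67% were higher and 12.5% lower at an unadjusted p under 0.05. The 4 medians were 0.01, 0.09, 0.08 and -0.02, beside -0.01 over all genes. Over all brighter probe sets the median was 0.05. With dim probe sets left out, limma called 0.715% of probe sets higher and 0.0762% lower. The 3′ minus 5′ value differed between the same arrays (0.956 in GW9662 against 1.18 in vehicle arrays), and its part in these values was not tested.

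Between bovine and vehicle cells limma called 49.2% of genes, 21.9% higher and 27.3% lower. With dim probe sets left out, 32.7% of probe sets were higher and 24.2% lower, and the median over all brighter probe sets was 0.05. Of the kinases, phosphatases and importins, 9 were higher, 2 lower and 5 did not pass (median 0.28, beside -0.02 over all genes). The kinase SRPK2, which phosphorylates SR proteins in the cytoplasm, was at 9.03 ± 0.059 in bovine cells and 9.85 ± 0.16 in vehicle cells, a difference of -0.82 (SE 0.072, adjusted p = 2.61e-05). The nuclear kinase CLK2 was lower as well (-0.29, adjusted p = 0.0376). AKT1, which also phosphorylates SR proteins, was higher by 0.61, TOP1, a topoisomerase that phosphorylates SRSF1, by 0.51, and the phosphatase catalytic subunit PPP1CA by 0.45 (adjusted p of 0.00377, 0.000101 and 0.000289).

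SR-related proteins and partners were higher for 14 genes and lower for 1, and 7 failed the threshold (median 0.34). THRAP3, counted as higher, had 1 other probe set that was called lower. The same held for TNPO1 among the importins and CASC3 among the decay and export genes. ACIN1, of the exon junction complex, and U2AF1, which reads the 3′ splice site, were each higher by 0.80, and the splicing activator TRA2B by 0.61 (adjusted p = 0.000385, 2.82e-06 and 1.16e-05). SREK1, a regulatory SR-related protein, was lower (-0.24, adjusted p = 0.0153). Among the hnRNP proteins 9 were higher, 0 were lower and 4 failed the threshold (median 0.25). PTBP1, the polypyrimidine tract repressor, was at 6.04 ± 0.29 in bovine cells and 4.52 ± 0.27 in vehicle cells, higher by 1.52 (SE 0.17, adjusted p = 0.000125). HNRNPU and HNRNPL were higher by 0.48 and 0.44.

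Of the decay and export genes, 6 were higher, 2 were lower and 9 failed the threshold (median 0.16). DDX39B, the helicase that starts mRNA export, was higher by 0.91, THOC5 of the THO complex by 0.85 and MAGOHB of the exon junction complex by 0.78 (adjusted p = 4.9e-05, 0.00101 and 0.00182). THOC1 was lower (-0.42, adjusted p = 0.0023), and THOC2 by a small amount on a probe set under 3 (-0.06, adjusted p = 0.0213). The same limit on ovine signal holds for these genes, and the 3′ minus 5′ value differed between the same arrays (0.881 in bovine against 1.18 in vehicle arrays).

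**Figure D5:**
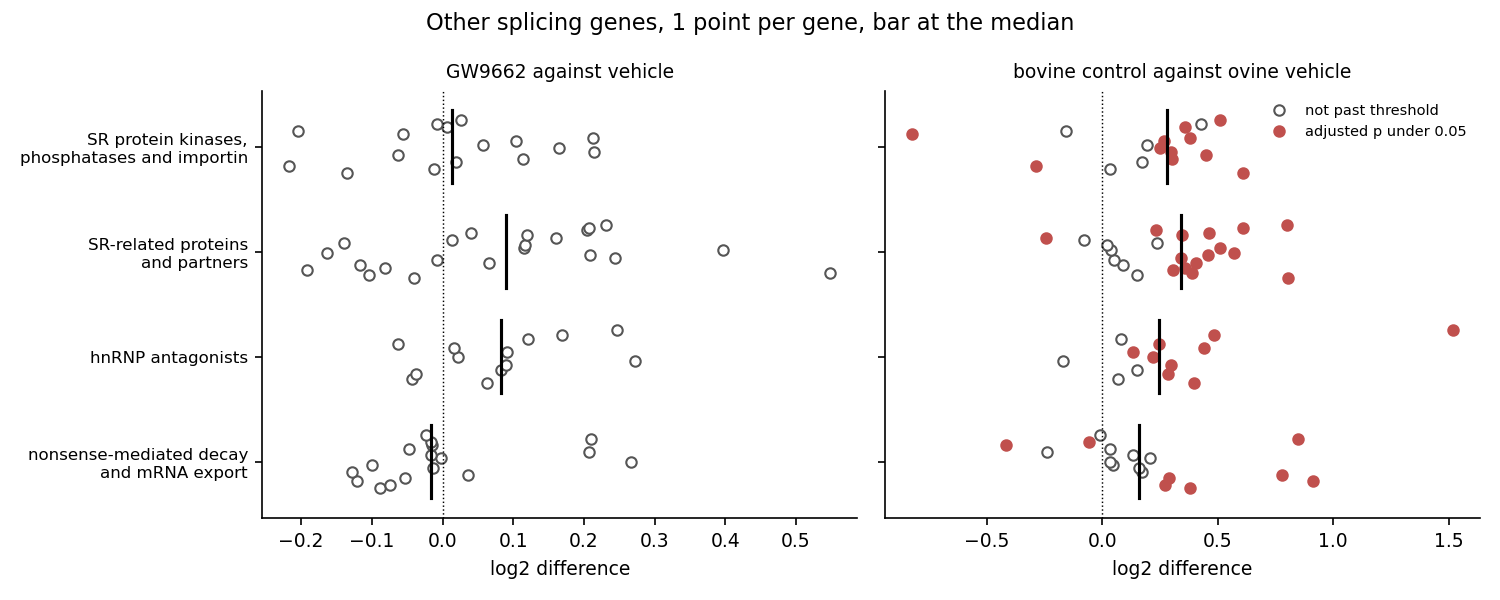
Log2 differences of the genes of the 4 lists, 1 point per gene, GW9662 minus vehicle on the left and bovine control minus ovine vehicle on the right, on x axes of different range. Filled points passed an adjusted p of 0.05, and the bar is the list's median. No point passed on the left, and PTBP1 stands at 1.52 on the right.

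The genes most like SRSF1 were sought by the Pearson correlation of deviations from group means over the 15 arrays, using the mean of its 3 probe sets, among 5673 other genes with a mean of at least 4. GDAP2 (r = 0.84), RCBTB2 (0.82), TMEM68 (0.81), PAX6 (0.81) and MARCHF6 (0.81) ranked first. These are the extremes of many values and describe spread between replicates that the arrays share. By the same measure the 3 SRSF1 probe sets had r of -0.30 between SRSF1-A and SRSF1-B, 0.04 between SRSF1-A and SRSF1-C and 0.33 between SRSF1-B and SRSF1-C. Within the family SRSF5 ranked closest at 0.52, in place 299, followed by SRSF11 at 0.48 and SRSF3 at 0.44, and SRSF6 was at -0.43.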

How the data were processed

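RNA of 15 samples was hybridised to Affymetrix bovine arrays, 1 per sample. The deposited values are log2 expression values that the authors made with RMA, per the submitters' processing notes. RMA is a background correction, quantile normalisation and probe summary, and its version is not given in the sources used here. The deposited values ran from 0.899 to 14.1 and record no signal over background, which limits what dim probe sets can show. The number of arrays, 5 per group, limits the precision as well. Of 24128 probe sets, 112 controls were left out. In the platform annotation 13292 of the 24016 others had 1 symbol, 86 several and 10638 none.

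For each comparison its own 10 arrays were fitted in R 4.3.3 with limma 3.58.1 (lmFit, then eBayes). P-values were adjusted by Benjamini-Hochberg over 24016 probe sets and called under 0.05, and those printed are limma's unless a permutation test is named. Probe sets with a mean under 4 are called dim. The fit was tested on simulated data, with 100 changes of 0.5 and 100 of 1 on the log2 scale among 24016 probe sets. For GW9662 against vehicle it recovered 69% and 99% of them, with 13 false calls. Between the controls it recovered 70% and 95%, with 9 false calls. Smaller changes were not simulated. Every SRSF probe set was described, and of each list the genes past the threshold for GW9662 and up to 3 per direction between the controls. The members and lists were chosen with earlier results of these data known. Replicate numbers are shared between groups, but same-numbered arrays did not deviate together, so no pairing was used. The alternatives were leaving out each array, the 3′ minus 5′ difference as a term, a replicate block, array weights, a fit of 15 arrays, dim probe sets left out, a variance with trend and robust fitting, centring of arrays and quantile normalisation once more.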

Additional observations from a re-analysis of the deposited data

Results flagged for a closer look

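In 4 of the 42 groups of 5 arrays examined (14 probe sets in 3 groups), 1 array lay apart from the other 4 by more than 0.71 of the group's range. Chance flags about 5% of groups. On the dim probe set SRSF11-C, bovine replicate 2 read 3.88 and the other bovine arrays 3.30 to 3.31. On the dim probe set SRSF11-B, GW9662 replicate 4 read 3.9 and the others 3.56 to 3.65. Vehicle replicate 5 read 9.62 on SRSF4-A, where the others read 9.45 to 9.49. Vehicle replicate 3 read 2.62 on the dim probe set SRSF4-B, where the others read 2.66 to 2.67.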

How the results depend on the processing

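For GW9662 against vehicle the count of 2 SRSF probe sets was 1 with array weights, 0 with the 3′ minus 5′ covariate and 0 with the replicate block, and 0 to 2 without single arrays. It was 2 under the other 5 settings. Both probe sets are of SRSF1, which led to the choice of the family, so nothing is read from this count. With the block limma called 0 of all probe sets. Deviations of same-numbered arrays correlated from -0.19 to 0.17 in this comparison and from -0.10 to 0.09 between the controls. Between bovine and vehicle cells 8 of the 11 probe sets outside SRSF1 passed, 7 with centring or with quantile normalisation once more, and 1 with the covariate. With dim probe sets left out, 5 of the remaining 8 passed. Over all 14, which include the 3 of SRSF1 that are described only, 11 were past the threshold. That count of 11 was 3 with the covariate, 9 to 11 without single arrays, 9 with the replicate block and 8 to 11 under the other 6 settings. The covariate did not overlap between groups in either comparison, so it and the group can hardly be separated in the fit. Between bovine and vehicle cells directions changed for SRSF6 with the covariate (0.087), for the dim probe set SRSF11-C with array weights (-0.0603), the covariate (-0.184) and single arrays left out (-0.0925 to 0.0508), and for SRSF5 without single arrays (-0.004 to 0.113). None of these 3 probe sets passed under those settings except SRSF11-C without bovine replicate 2. For GW9662, signs also changed under 1 or more settings for 7 probe sets with differences of -0.05 to 0.07: SRSF4-A (quantile normalisation -0.03, weights -0.01, covariate -0.03), SRSF6 (covariate 0.04), SRSF7 (covariate -0.05), SRSF9 (centring 0.04), and the dim SRSF4-B, SRSF11-B and SRSF11-C. Between the controls SRSF9 was lost in 6 of the 8 settings that keep all arrays, at 0.06 in each, and SRSF4-B passed in the fit of 15 arrays (0.16, adjusted p = 0.0428). The cause was not tested. Over all probe sets, the 10860 called between bovine and vehicle cells were 6455 with centring, 6802 with quantile normalisation once more, 5994 without dim probe sets, 5396 with the block and 1601 with the covariate. The 44 called for GW9662 were 67 with centring, 83 without dim probe sets, 26 with trended variance, 237 in the fit of 15 arrays and 0 with the covariate. Over all probe sets the median difference for GW9662 was -0.02, and 0.03 with centring. Signal over background is not recorded, which limits the dim probe sets.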

Other observations

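The spread between replicates was also compared among the 11 SRSF probe sets with a mean of at least 4. Over their 55 pairs the Pearson correlation of deviations from group means on the 15 arrays had a median of 0.18, and 36 were positive. The closest pair was SRSF3 and SRSF5 (0.81), followed by SRSF1-C with SRSF11 (0.74) and SRSF4 with SRSF11 (0.73). SRSF3 and SRSF7 stood at the other end (-0.66). Points share arrays and their normalisation, so these values are a description.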
